A study of Mus musculus with 6 samples.

Results

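The 49 genes described here form the core machinery of cell division, and they were matched by exact gene symbol to rows of an RNA sequencing table of 53278 genes. All 49 were found, and 48 of them passed the filter on low counts and entered the test. The members are 8 cyclins, 5 genes of the cyclin-dependent kinases (CDKs) and their activating phosphatase, 5 genes that hold the CDKs back (inhibitors and the phosphatase Cdkn3), 6 genes of the E2F, RB and Myc families, 9 replication licensing genes, 4 DNA synthesis genes and 12 genes of mitosis and chromosomes. No member passed the test for a rise or a fall with DTA-1 treatment. With all 6 libraries, 0 of the 14361 tested genes passed it either. The fitted difference of every tested member, with its 95% interval, stayed within 1.5-fold with all 6 libraries, beside 58.9% of all tested genes. Without DTA-1 replicate 1 this held for 46 of 48 members, beside 52.7%.

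The cells were type-2 innate lymphoid cells (ILC2s), tissue lymphocytes that secrete type 2 cytokines, sorted from the visceral adipose tissue of 8 weeks old C57BL/6 mice. The study's flow cytometry describes ILC2s as negative for lineage markers and positive for CD45, IL-7R and the IL-33 receptor ST2. Its methods for isolating cells after IL-33 injection name CD45, ST2 and CD117. All mice had received 3 intraperitoneal injections of 1 µg rm-IL33, and all cells were then cultured at 37 °C for 48 hours with rm-IL-2 and rm-IL-7, each at 10 ng/mL. The time is that of the labels and the methods, and the study's results text gives a shorter one. The 3 DTA-1 libraries came from cells given DTA-1 at 5 µg/mL, an antibody that activates the TNF receptor family member GITR. By the study and the sample titles, the 3 isotype control libraries came from cells given a control antibody. The column labels of these control libraries read PBS-GITR instead. The number of mice behind a library and whether mice were pooled are not given in the sources used here, so p-values measure only the spread between these libraries. Both groups carried IL-33 activation and both cytokines, so the levels below are those of stimulated cells, and cells without that stimulation were not analysed here.

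A cell enters the cycle when D-type cyclins and their kinases phosphorylate the RB proteins, which releases E2F transcription factors to switch on genes for DNA replication. Cyclin E and cyclin A with Cdk2 drive S phase, and cyclin B with Cdk1 drives mitosis, which ends when Cdc20 directs the anaphase-promoting complex to destroy cyclin B. CDK inhibitors such as p21 hold these kinases back. In lymphocytes, IL-2 family cytokines and Myc are known drivers of entry into the cycle, and receptors of the TNF receptor family such as GITR are known as costimulators.

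The promoters of these genes carry short letter patterns linked to the phase of the cycle, and 4 promoters are printed, each from the gene with the highest level per length among those of its role that hold the letters marked. RefSeq promoter windows, from 250 bases before to 50 bases after the start of transcription, were given for 40 of the 49 members. The windows were searched on both strands for E2F letters (TTTCCCGC, TTTGGCGC, TTTCGCGC or TTTGCCGC), for the letters of the cell cycle genes homology region (CHR, TTTGAA or TTCGAA), which mark many mitosis genes, and for CCAAT. No pattern contains another, but occurrences of the E2F letters on opposite strands can overlap. Each line gives the strand on which the gene lies in build GRCm38.p6 and reads 5′ to 3′ along that strand. Capitals mark E2F letters in Mcm6 and the CHR and CCAAT letters, or their reverse complement, in the other promoters.
Mcm6, chr1:128359656-128359955, minus strand: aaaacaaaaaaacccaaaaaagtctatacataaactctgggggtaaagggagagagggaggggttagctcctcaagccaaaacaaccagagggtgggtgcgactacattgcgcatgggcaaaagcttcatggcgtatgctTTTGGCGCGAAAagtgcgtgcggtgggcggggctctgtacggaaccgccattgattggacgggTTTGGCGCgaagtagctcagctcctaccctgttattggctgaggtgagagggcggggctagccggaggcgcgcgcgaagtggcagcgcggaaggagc
Cdk1, chr10:69352863-69353162, minus strand: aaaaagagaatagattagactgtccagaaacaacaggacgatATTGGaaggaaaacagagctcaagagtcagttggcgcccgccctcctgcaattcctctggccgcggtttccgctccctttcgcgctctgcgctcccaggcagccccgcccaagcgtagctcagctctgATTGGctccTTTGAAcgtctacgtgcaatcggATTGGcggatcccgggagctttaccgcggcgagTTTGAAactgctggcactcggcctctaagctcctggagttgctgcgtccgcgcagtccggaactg
Ccnb2, chr9:70421505-70421804, minus strand: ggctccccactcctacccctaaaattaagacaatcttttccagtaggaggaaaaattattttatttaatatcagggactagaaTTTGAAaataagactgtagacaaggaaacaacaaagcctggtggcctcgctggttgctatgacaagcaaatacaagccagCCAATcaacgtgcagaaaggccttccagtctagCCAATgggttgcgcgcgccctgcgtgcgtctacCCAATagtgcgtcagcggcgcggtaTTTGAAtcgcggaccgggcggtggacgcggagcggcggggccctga
Cdc20, chr4:118437294-118437593, minus strand: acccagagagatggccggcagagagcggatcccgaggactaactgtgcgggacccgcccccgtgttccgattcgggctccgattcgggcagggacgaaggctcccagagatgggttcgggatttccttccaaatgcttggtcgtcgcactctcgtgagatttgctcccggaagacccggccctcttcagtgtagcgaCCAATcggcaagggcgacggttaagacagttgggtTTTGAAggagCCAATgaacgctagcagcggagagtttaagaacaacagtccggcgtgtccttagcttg
Mcm6, a subunit of the replicative helicase, held E2F letters at 3 places, 2 of which overlap, and Cdk1 also held E2F letters, left here in lower case. Cdk1, Ccnb2 and Cdc20 each held CHR and CCAAT letters together.

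E2F letters were found in 12 of the 40 members with a promoter (30%), beside 2.60% of the 27025 genes with one. They stood in 6 of 7 replication licensing genes, in 3 of 5 CDKs and activating phosphatase (Cdk1, Cdk2 and Cdc25a), in 3 of 4 genes of the E2F, RB and Myc families (E2f2, E2f3 and Rbl1) and in 0 of 11 genes of mitosis and chromosomes. CHR letters were found in 16 of 40 members (40%) beside 21.7% of all genes, and CCAAT letters in 30 of 40 (75%) beside 41.1%. CHR and CCAAT letters stood together in 9 of 11 genes of mitosis and chromosomes and in 16 of 40 members (40%), beside 8.61% of all genes. In the DNA synthesis group 0 of 4 promoters held E2F letters and 0 of 4 held CHR letters. A match describes the letters of the window and does not show that a factor binds there.

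The libraries held between 30569351 and 35131329 counts, and 3 counts, the limit that a count of 0 allows, correspond to 0.0848 to 0.0970 CPM, the unit of counts scaled to a common library size by the trimmed mean of M values (TMM). The markers of the sorted cells were present, with Gata3, the transcription factor that defines these cells, between 1525 and 1716 CPM and Il1rl1, the IL-33 receptor, between 1022 and 1286 CPM. Thy1 was low, between 9.16 and 11.7 CPM. The 11 ILC2 markers summed to 10581 to 11216 CPM in isotype control and 11361 to 14966 CPM in DTA-1, with Il5 its highest member in every library. By gene, 3 of the 11 had a fitted value above 0 and 8 below, with a median log2 fold change of -0.04. Il5 was higher in all DTA-1 libraries, beside 5.26% of all tested genes. Gata3 was lower in all of them, beside 6.03%. Of the 7 T cell markers 4 passed the filter on low counts, Cd3d and Cd3g among them, and Cd8a was at 0 in every library. That list summed to between 40.3 and 53.6 CPM in isotype control and between 46.0 and 50.9 CPM in DTA-1. Among B cell markers Ms4a1 was at 0 in every library, and Cd79b had 16.4 to 17.3 CPM in isotype control and 16.8 to 17.8 CPM in DTA-1. Macrophage markers summed to 2.31 to 4.28 CPM in isotype control and 1.22 to 4.14 CPM in DTA-1. The 7 fibroblast markers summed to 2.82 to 9.38 CPM in isotype control and 0 to 3.98 CPM in DTA-1. Of these, Col1a1, Pdgfra and Fbn1, 3 of 5 tested, were lower in all DTA-1 libraries, beside 6.03% of all tested genes. They pass the filter on low counts through the isotype control libraries, in which they are higher, so no test of them is given. Without DTA-1 replicate 1, 2 of 11 ILC2 markers, Il5 (higher) and Icos (lower), were called at an adjusted p under 0.05 and 1.5-fold (edgeR). The share of all tested genes was 0.744%. That library was singled out partly by its Il5 value, so the call of Il5 without it is no independent test. The part of the fibroblast markers' cells in the results was not tested.

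The library labelled DTA-1 replicate 1 stood apart from the other DTA-1 libraries over the whole table. Over all genes, the chi-square distance per degree of freedom was 9.64 to 11.3 between DTA-1 replicate 1 and the isotype control libraries, 11.4 between DTA-1 replicates 2 and 3, and 27.1 to 28.2 between DTA-1 replicate 1 and the other DTA-1 libraries. For Il5, the cytokine gene typical of ILC2s, this library had 5627 CPM, beside 5063, 5418 and 5493 CPM in isotype control and 9695 and 8899 CPM in DTA-1 replicates 2 and 3. By this distance and by Il5 the library lay with the isotype control, against its label. For Myc it lay above every isotype control library, as for 22.8% of all tested genes, and for Cdk2 below every one, as for 23.1%. The counts and the members the results turn on are therefore given with it and without it. It was singled out from its values in these same data, Il5 among them, so p-values without it carry that choice.

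The tested members lay at similar levels in both groups. Together they summed to 9465, 9521 and 9621 CPM in isotype control and to 9449.9, 9757 and 9932 CPM in DTA-1. The groups overlapped through DTA-1 replicate 1, which had the lowest sum of the 6 libraries. Per kilobase of exon, the mean level of tested members over the 6 libraries ran from 3.04 CPM per kb for E2f3, an activating E2F, to 247 CPM per kb for Rrm2, the regulated subunit of ribonucleotide reductase. Ccnd1, which was not tested, had 0.0469 CPM per kb. The median tested member stood at 32.8 CPM per kb, beside 4.72 CPM per kb for all tested genes with an exon length. Replicates lay close together, with a median coefficient of variation of 4.54% in isotype control and 6.38% in DTA-1 for the members, beside 10.4% and 11.8% for all tested genes. In RNA from many cells, a smaller share of dividing cells and less RNA in each of them cannot be told apart.

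**Figure D1:**
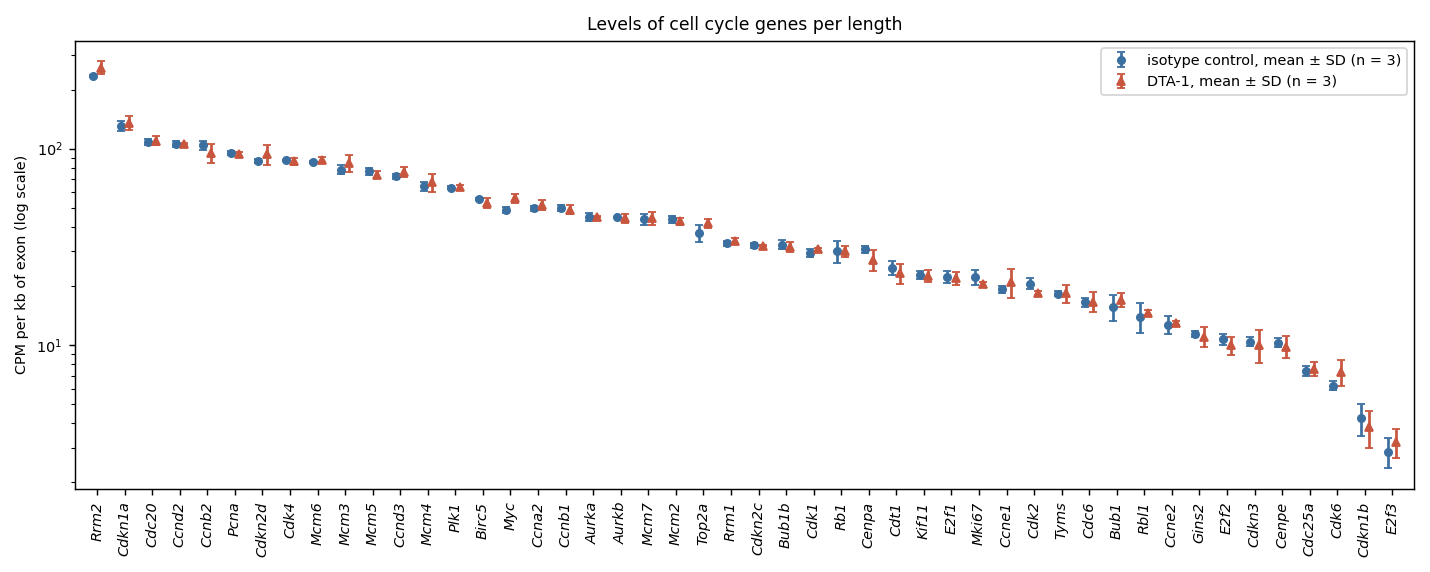
Mean level per kilobase of exon (y axis, CPM per kb, log scale) for the 48 tested members, ordered along the x axis by their mean over the 6 libraries; circles are isotype control and triangles DTA-1, with bars of 1 SD (n = 3). The genes run from Rrm2 at 247 to E2f3 at 3.04 CPM per kb, with the circle and the triangle of each gene side by side.

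In order of level per length, Rrm2 (235 ± 2.89 CPM per kb for isotype control and 259 ± 20.2 for DTA-1, mean ± SD, n = 3) stood above Cdkn1a (131 ± 7.29 and 136 ± 10.7). Cdkn1a encodes the CDK inhibitor p21, so the 2 members with the highest levels were a DNA synthesis gene and a brake on the cycle. Cdc20 (108 ± 4.16 and 109.9 ± 5.56) and Ccnd2 (106 ± 3.71 and 105.7 ± 0.815) followed, and these neighbours did not differ beyond their spread. At the other end, Cdk6 (6.22 ± 0.308 and 7.32 ± 1.11), Cdkn1b (4.24 ± 0.788 and 3.81 ± 0.814) and E2f3 (2.86 ± 0.508 and 3.21 ± 0.535) had the lowest levels among tested members. Cdkn1b encodes p27, an inhibitor that is abundant in resting lymphocytes.

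The comparison of DTA-1 with isotype control asks whether engaging GITR changed the expression of the division machinery in activated ILC2s. With all 6 libraries, 0 of 48 members were called at an adjusted p under 0.05 and at least 1.5-fold by edgeR's quasi-likelihood test, and 0% of the 14361 tested genes were called, so the count is that of the background. Past 1.5-fold with an unadjusted p under 0.05 there were 0 of 48 members and 2.35% of the tested genes. At an unadjusted p under 0.05 with no limit on the fold, 3 members (Cdk6, Myc and Top2a) were higher, or 6.25%, beside 4.11% of all tested genes. In the other direction 1 member (Cdk2) was lower, or 2.08%, beside 3.11%. DESeq2's Wald test called 25 genes in the table and 0 members.

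The median member had a log2 fold change of 0.00, beside -0.01 over all tested genes. Fitted values ran from -0.17 for Cenpa to 0.23 for Cdk6, with 25 members above 0 and 23 below. The smallest adjusted p of any member was 0.632, for Myc (edgeR). The 95% interval lay within 1.5-fold for 48 of 48 members, beside 58.9% of all tested genes, whose levels were lower and whose replicates were more spread. The intervals that came nearest to that limit were those of the thinly expressed Cdkn1b, which reached down to 0.680-fold, and E2f3, which reached up to 1.45-fold. These intervals are per gene and not adjusted over the members.

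**Figure D2:**
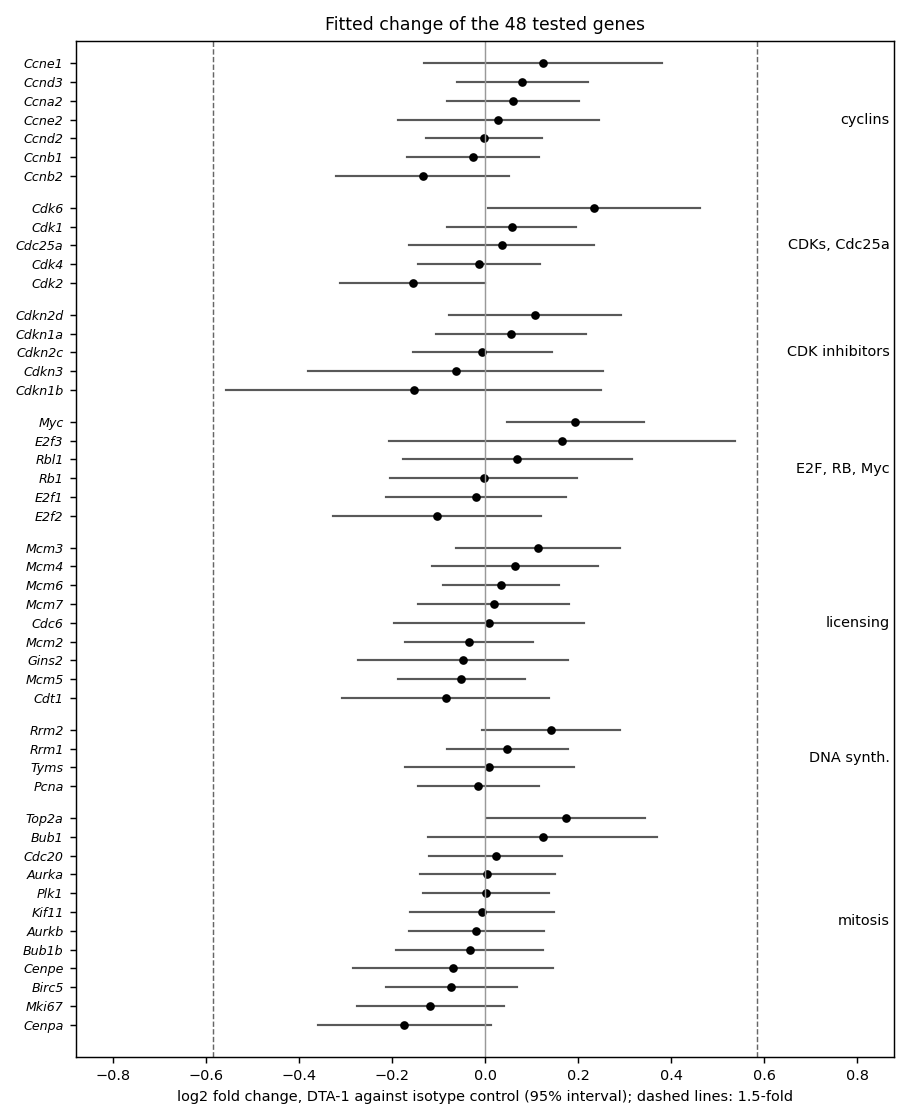
Fitted log2 fold change of DTA-1 against isotype control (x axis) for the 48 tested members (y axis), grouped by role; points are fitted values, bars 95% intervals and dashed lines 1.5-fold in either direction. The fitted values lie between -0.17 (Cenpa) and 0.23 (Cdk6), and all 48 intervals stay between the dashed lines.

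Without DTA-1 replicate 1, 0 of 48 members were called at an adjusted p under 0.05 and 1.5-fold, beside 0.744% of 14911 tested genes. Past 1.5-fold with an unadjusted p under 0.05 there were 0 of 48 members and 4.02% of the tested genes. At an unadjusted p under 0.05 and any fold, 8 members were higher (Ccnd3, Cdk6, Cdkn2d, Myc, Mcm3, Mcm4, Rrm2 and Top2a), or 16.7%, beside 7.5% of all tested genes. On the same rule 2 members were lower (Ccnb2 and Cenpa), or 4.17%, beside 6.53%. Fitted values then ran from -0.32 for Cdkn1b to 0.34 for Cdk6 with a median of 0.02, beside -0.02 over all tested genes. The smallest adjusted p of a member was 0.0740, for Cenpa, and 46 of 48 intervals lay within 1.5-fold, beside 52.7% of all tested genes. The exceptions were Cdkn1b, from 0.602-fold to 1.07-fold, and E2f3, from 0.860-fold to 1.55-fold.

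**Figure D3:**
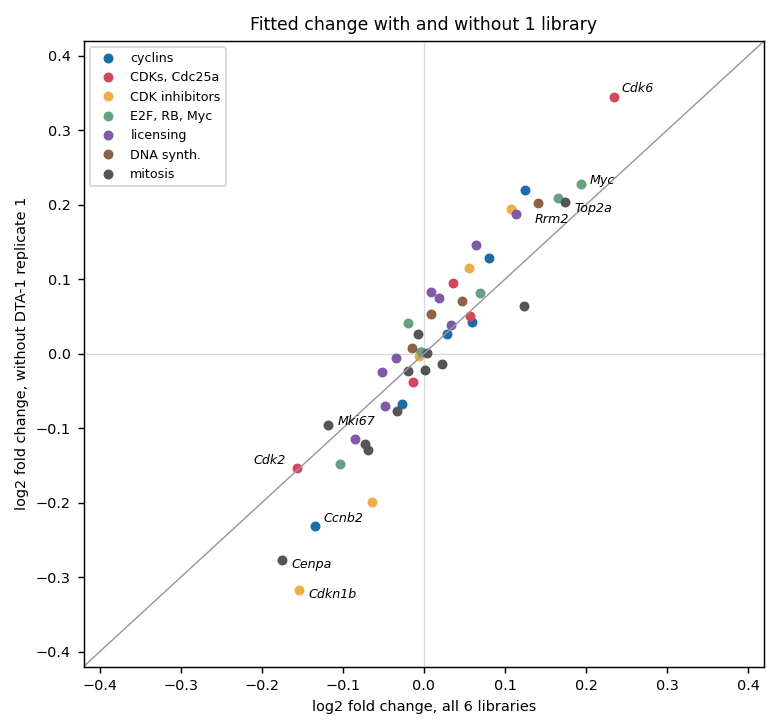
Fitted log2 fold change with all 6 libraries (x axis) against that without DTA-1 replicate 1 (y axis) for the 48 tested members, 1 point a gene, coloured by role; the diagonal marks equal values and both axes share isotype control and DTA-1 replicates 2 and 3. The ends of the range move from -0.17 and 0.23 to -0.32 and 0.34.

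Cyclins are the regulatory partners that switch on the CDKs, and 0 of their 7 tested genes were called. Ccnd2, a D-type cyclin of the first phase of the cycle, was the member with the highest CPM. It had 1019, 957 and 1015 CPM in isotype control and 986, 997 and 1000.4 CPM in DTA-1. The DTA-1 libraries all lay inside the isotype control range, and the fold was 0.997 with a 95% interval of 0.915 to 1.09. Ccnb2, which activates Cdk1 for mitosis, had 166, 150.4 and 163 CPM in isotype control and 164, 135 and 138 CPM in DTA-1. DTA-1 replicates 2 and 3 lay below every isotype control library and replicate 1 did not. Its fold was 0.911 (0.801 to 1.04), with an adjusted p of 0.757 in edgeR, and 0.160 without DTA-1 replicate 1. The other tested cyclins, Ccnd3, Ccne1, Ccne2, Ccna2 and Ccnb1, had log2 fold changes between -0.03 and 0.12. Ccnd1 was the member that did not enter the test, with expected counts of 2.4, 8.7 and 3.7 in the isotype control libraries, beside 9.9, 16.4 and 2.5 in those of DTA-1. It overlaps Oraov1 on the other strand, which had a mean of 933 counts.

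The kinases form the engine of the cycle and included the member with the highest fitted value, Cdk6, and 0 of 5 genes were called. Cdk6, a partner of the D-type cyclins (chr5:3341485-3531008 in mm10), had 87.1, 82.7 and 91.3 CPM in isotype control and 86.0, 117 and 104 CPM in DTA-1. The groups overlapped through DTA-1 replicate 1, while replicates 2 and 3 lay above every isotype control library. Its fold was 1.18 (1.00 to 1.38) with an adjusted p of 0.681 in edgeR, and leaving out DTA-1 replicate 1 gave 0.34 on the log2 scale with an adjusted p of 0.0813. Cdk2, the partner of cyclins E and A (chr10:128697939-128705031), had 136, 129.8 and 119 CPM in isotype control and 114, 118 and 112 CPM in DTA-1. Every DTA-1 library was below every isotype control library, with a gap of less than 1 CPM between the nearest values. Its fold was 0.897 (0.805 to 1.00) with an adjusted p of 0.691 in edgeR, and 0.418 without DTA-1 replicate 1. Cdk4, the other partner of the D-type cyclins and the highest of the kinases, had 283, 282 and 285 CPM in isotype control and 290.4, 284 and 268 CPM in DTA-1. Its groups overlapped, with a fold of 0.991 (0.905 to 1.09). Cdk1 and Cdc25a, the phosphatase that activates Cdk2, had log2 fold changes of 0.06 and 0.04.

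The CDK inhibitors and the phosphatase Cdkn3 gave 0 called genes of 5. Cdkn1a had 491, 439 and 461 CPM in isotype control and 441, 517 and 488 CPM in DTA-1. The groups overlapped, with a fold of 1.04 (0.930 to 1.16). Cdkn2d, an inhibitor of Cdk4 and Cdk6, had 137, 133 and 140.1 CPM in isotype control and 129, 162 and 151 CPM in DTA-1. DTA-1 replicate 1 was the lowest of the 6 libraries and replicates 2 and 3 were the highest. The fold was 1.08 (0.948 to 1.22), with an adjusted p of 0.819 in edgeR, and 0.220 without DTA-1 replicate 1. Cdkn2c, Cdkn3 and Cdkn1b had log2 fold changes of -0.01, -0.06 and -0.15.

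Of the E2F, RB and Myc genes 0 of 6 were called. Myc, which drives growth and entry into the cycle (chr15:61985391-61990374), had 127, 134 and 136 CPM in isotype control and 144, 151 and 159.6 CPM in DTA-1. With TMM it was the only tested member that was higher in all 3 DTA-1 libraries than in every isotype control library, DTA-1 replicate 1 included, and with DESeq2 size factors Cdk1 was the other. The log2 fold change was 0.19 (SE 0.07), a fold of 1.14 (1.03 to 1.27), with an adjusted p of 0.632 in edgeR. Leaving out DTA-1 replicate 1 gave 0.23 on the log2 scale with an adjusted p of 0.151 (edgeR). Over all tested genes, 5.26% were likewise higher without overlap and 6.03% lower, beside 2.08% of the members in each direction (Myc and Cdk2). E2f1, E2f2 and E2f3 had log2 fold changes of -0.02, -0.10 and 0.17, and the RB family genes Rb1 and Rbl1 of 0.00 and 0.07. For Rb1 and Rbl1 the isotype control libraries were spread more widely than the DTA-1 libraries, from 162 to 206 CPM and from 68.3 to 96.8 CPM.

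**Figure D4:**
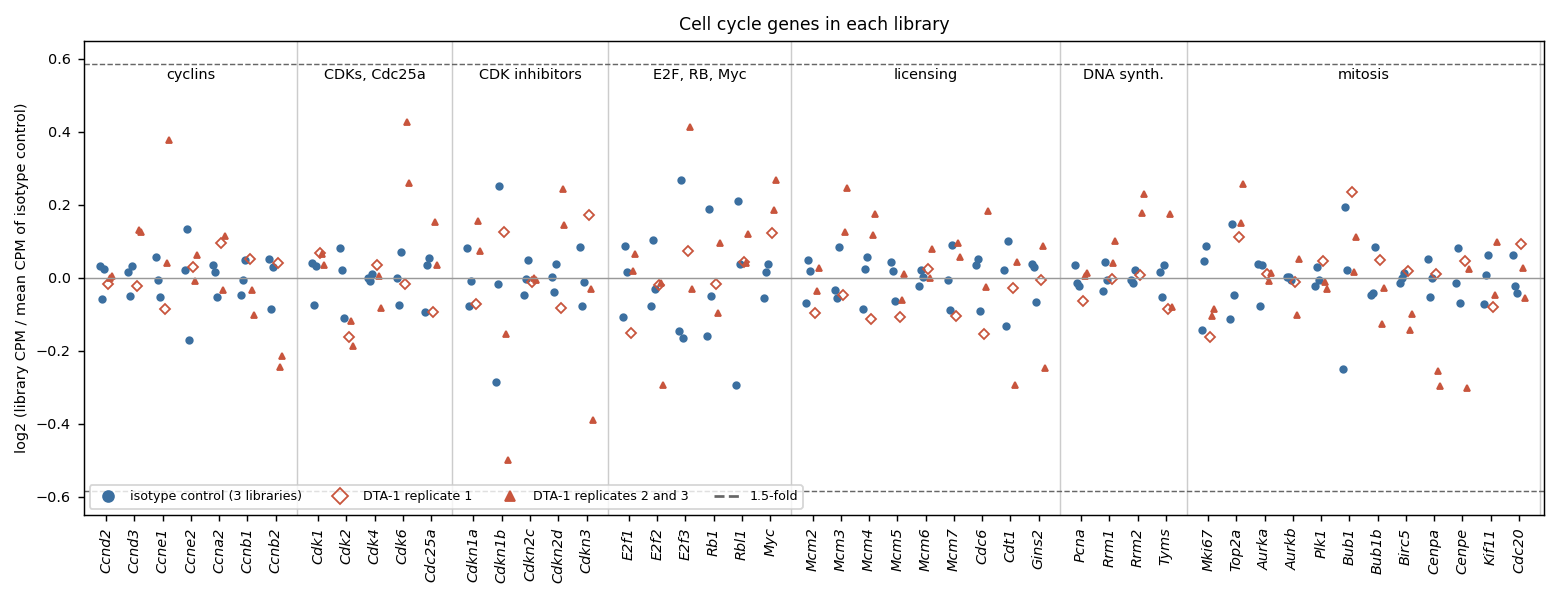
Level of each tested member in each of the 6 libraries as log2 of its CPM over the mean of the 3 isotype control libraries (y axis), with genes along the x axis grouped by role; circles are isotype control, open diamonds DTA-1 replicate 1, triangles DTA-1 replicates 2 and 3, and dashed lines 1.5-fold. All values lie between the dashed lines, and Myc is the gene whose 3 DTA-1 libraries all lie above its isotype control libraries.

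Replication licensing genes load and activate the helicase at origins, and 0 of 9 were called. Mcm6, whose promoter letters are printed above, had 394, 406 and 400.3 CPM in isotype control and 407, 399.6 and 422 CPM in DTA-1. The groups overlapped, with a fold of 1.02 (0.939 to 1.12). Mcm3, another helicase subunit, had 286, 282 and 310.4 CPM in isotype control and 283, 319.6 and 347 CPM in DTA-1. DTA-1 replicates 2 and 3 lay above the isotype control libraries and replicate 1 among them. Its fold was 1.08 (0.957 to 1.22), with an adjusted p of 0.788 in edgeR, and 0.239 without DTA-1 replicate 1. The other licensing genes, Mcm2, Mcm4, Mcm5, Mcm7, the loading factors Cdc6 and Cdt1 and the GINS subunit Gins2, had log2 fold changes between -0.09 and 0.06. In sum, the 9 genes gave 1911 to 1966 CPM in isotype control and 1852 to 2067 CPM in DTA-1.

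Of the DNA synthesis genes 0 of 4 were called. Rrm2 had 647, 644 and 659 CPM in isotype control and 654, 735 and 762 CPM in DTA-1. DTA-1 replicate 1 lay inside the narrow isotype control range and replicates 2 and 3 above it. The fold was 1.10 (0.995 to 1.22) with an adjusted p of 0.702 in edgeR, and leaving out DTA-1 replicate 1 gave 0.20 on the log2 scale with an adjusted p of 0.0943. Pcna, the sliding clamp of the replication fork, Rrm1, the large subunit of ribonucleotide reductase, and Tyms, which makes thymidylate, had log2 fold changes of -0.01, 0.05 and 0.01. The 4 genes summed to 1346 to 1358 CPM in isotype control and 1339 to 1485 CPM in DTA-1.

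Genes of mitosis and chromosomes gave 0 called of 12. Top2a, which untangles sister chromatids (chr11:98992943-99024189), had 309, 370.2 and 324 CPM in isotype control and 361, 371 and 399 CPM in DTA-1. The groups overlapped at isotype control replicate 2. The fold was 1.13 (1.00 to 1.27) with an adjusted p of 0.681 in edgeR, and 0.289 without DTA-1 replicate 1. Cdc20 had 211, 199 and 197 CPM in isotype control and 215, 206 and 195 CPM in DTA-1, with a fold of 1.02 (0.920 to 1.12). The DTA-1 libraries reached past the isotype control range at both ends.

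Mki67 and Cenpa are named after their values were seen, Mki67 as the widely used marker of dividing cells and Cenpa as the member with the lowest fitted value. Mki67 had 202, 230.1 and 237 CPM in isotype control and 199, 207 and 209.9 CPM in DTA-1. The groups overlapped, and the fold was 0.921 (0.826 to 1.03) with an adjusted p of 0.751 in edgeR, and 0.637 without DTA-1 replicate 1. Cenpa, the histone H3 variant of centromeres, had 186, 173 and 179.8 CPM in isotype control and 181, 150.5 and 146 CPM in DTA-1. Again DTA-1 replicate 1 lay inside the isotype control range and replicates 2 and 3 below it. The fold was 0.886 (0.779 to 1.01) with an adjusted p of 0.702 in edgeR, and 0.0740 without DTA-1 replicate 1. The other 8 genes, the kinases Aurka, Aurkb, Plk1, Bub1 and Bub1b, the survivin gene Birc5 and the motor proteins Cenpe and Kif11, had log2 fold changes between -0.07 and 0.12.

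Across single libraries, members lay on both sides of the isotype control range in each DTA-1 library. In DTA-1 replicate 1, 11 members were above it, 14 below and 23 inside, and of all tested genes 22.8% were above and 23.1% below. In replicate 2 these numbers were 15, 8 and 25, beside 27.5% and 29.4% of all tested genes. In replicate 3 they were 15, 13 and 20, beside 27.6% and 30.6%. In both replicates 2 and 3, 8 members (16.7%) were above every isotype control library, beside 15.5% of all tested genes, and they are the 8 that were higher without DTA-1 replicate 1. Those below in both were Ccnb2, Cdk2, Birc5 and Cenpa, 4 of 48 beside 16.1% of all tested genes.

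The rest of the pathway was read from 4 further lists, and 0 genes of any were called with or without DTA-1 replicate 1. Of 30 other S phase genes, 16 had a fitted value above 0 and 14 below, with a median log2 fold change of 0.00, and 0.02 without DTA-1 replicate 1. Cdc45, which joins the helicase at origins, had the smallest p, with 62.1, 61.6 and 53.7 CPM in isotype control and 67.4, 67.7 and 68.8 CPM in DTA-1. Its DTA-1 libraries were all higher, at a log2 fold change of 0.20 and an adjusted p of 0.657 (edgeR), and 0.358 without DTA-1 replicate 1. Of 40 other G2 and M phase genes, 17 were above 0 and 23 below, with a median of -0.02, and 16 were above 0 with a median of -0.03 without DTA-1 replicate 1. Cbx5, a heterochromatin protein, had the smallest p, with 43.9, 41.7 and 41.1 CPM in isotype control and 37.8, 33.2 and 36.5 CPM in DTA-1. Its DTA-1 libraries were all lower, at a log2 fold change of -0.24 and an adjusted p of 0.655 (edgeR), and 0.242 without DTA-1 replicate 1. Kif20b, a mitotic motor protein, had 57.4, 75.2 and 64.4 CPM in isotype control and 59.7, 54.4 and 46.1 CPM in DTA-1. The groups overlapped, at -0.30 on the log2 scale and an adjusted p of 0.657 (edgeR), and 0.201 without DTA-1 replicate 1. Hmgb2, a chromatin protein of dividing cells, had 683, 635 and 664 CPM in isotype control and 657, 559 and 529.8 CPM in DTA-1. Its adjusted p was 0.677 with all libraries and 0.0454 without DTA-1 replicate 1, at a log2 fold change of -0.28 that fell short of 1.5-fold.

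Of 27 other regulators of the cycle, 12 were above 0 and 15 below, with a median of -0.01, and 14 were above 0 and 13 below without DTA-1 replicate 1. Tfdp2, a dimer partner of the E2F factors, had the smallest p, with 33.9, 41.3 and 45.1 CPM in isotype control and 36.1, 28.9 and 30.9 CPM in DTA-1. The groups overlapped, at -0.33 on the log2 scale and an adjusted p of 0.655 (edgeR), and 0.181 without DTA-1 replicate 1. Cdkn2b encodes the Cdk4 and Cdk6 inhibitor p15. It was the only gene of the 4 lists past an unadjusted p under 0.05 and 1.5-fold, beside 2.35% of all tested genes. It had 6.27, 3.96 and 5.75 CPM in isotype control and 5.43, 10.4 and 9.00 CPM in DTA-1, and the groups overlapped through DTA-1 replicate 1. Its fitted log2 difference was 0.63 (SE 0.27) with an adjusted p of 0.664 (edgeR), and 0.127 without DTA-1 replicate 1. Of 15 quiescence and antiproliferative genes, 7 were above 0 and 8 below, with a median of -0.01, and 5 were above 0 and 10 below, with a median of -0.05, without DTA-1 replicate 1. Trp53inp1, a p53 target that slows growth, had 58.3, 73.5 and 63.2 CPM in isotype control and 59.7, 39.8 and 47.7 CPM in DTA-1. Its log2 fold change was -0.41 (SE 0.14) with an adjusted p of 0.632 (edgeR), and 0.0570 without DTA-1 replicate 1.

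Some member counts are less certain because the sources used here do not state whether counting used strand. Cdk4 overlaps Tspan31, which had a mean of 7959 counts beside 9391 for Cdk4. Cdc20 overlaps Elovl1, Mcm7 overlaps Cops6, Rb1 overlaps Lpar6 and Rcbtb2, Ccne2 overlaps Ints8, Ccna2 overlaps Exosc9 and Ccnd3 overlaps Bysl, all on the other strand. The predicted gene Gm20388 overlaps Gins2 on the other strand and Cdt1 on the same strand. For Cdt1, counting by strand would not separate these genes. The pseudogenes Ccnb1-ps and Pcna-ps2 had 152 to 208 and 142 to 180 counts a library, so reads of Ccnb1 and Pcna could have been divided with them.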

How the data were processed

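RNA of sorted ILC2s was sequenced on an Illumina NextSeq instrument. The deposited values are expected counts per gene, estimated by the authors with Partek and not normalized, with 77.8% of values whole. The submitters' processing notes name bcl2fastq 2.17.1.14, STAR 2.5.3a and build mm10. Annotation and strand setting are not given in the sources used here. Of 49721 symbols shared with GENCODE M21, 47717 had the same start and end, among them 48 of the 49 members, and exon lengths were taken from it.

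Counts were rounded and fitted over the whole table in R 4.3.3 with edgeR 4.0.16 (filterByExpr, TMM, robust quasi-likelihood F test, no covariate). The filter kept 14361 genes. A call needed a Benjamini-Hochberg adjusted p under 0.05 and 1.5-fold, the study's limit. Intervals at 95% came from the standard error of the fit. The procedure was tested on simulated data in which 200 of 14361 genes were changed 2-fold. It recovered 128 of them, with 7 false calls, and smaller changes were not simulated. Alternatives were limma 3.58.1 (limma-trend, prior count 2), DESeq2 1.42.0 (Wald test), DESeq2 size factors, total counts, no filter except 1 count, a filter of 10 counts in all libraries, the replicate block and each library left out. Counts at an unadjusted p with any fold, of intervals within 1.5-fold and of groups that do not overlap under other normalizations were added after the data were seen. Figures were drawn with matplotlib 3.10.9.

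Members and lists were chosen with earlier results of these data known. Values in every library are given for members with an unadjusted p under 0.05, or an adjusted p under 0.05 in any alternative, for the member of each role with the highest mean level per length or the smallest p, and for up to 3 genes of each further list, taken from those with the 3 smallest p.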

Additional observations from a re-analysis of the deposited data

How the results depend on the processing

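The count of called members was 0 and the count past an unadjusted p and 1.5-fold was 0 under every alternative run. The median log2 fold change of the members was -0.033 with total counts, where the median of all genes moved to -0.04, and ranged from 0.0074 to 0.017 with each library left out. The count of members at an unadjusted p under 0.05 and any fold was 2 with limma-trend, and ranged from 0 (without DTA-1 replicate 3) to 10 (without DTA-1 replicate 1) with each library left out. It was 1 without DTA-1 replicate 2 and 2 without any 1 of the isotype control libraries. Without DTA-1 replicate 1, 16.7% of members were higher and 4.17% lower on this rule, beside 7.5% and 6.53% of all tested genes. The share of all tested genes was not worked out for the other settings named here, so their counts are not read against it. Members without overlap were Cdk1 and Myc (higher) and Cdk2 (lower) with DESeq2 size factors, beside 5.44% of all tested genes higher and 5.95% lower, and Myc (higher) and Cdk2 and Pcna (lower) with total counts, beside 3.84% and 8.03%. Intervals within 1.5-fold numbered 47 of 48 with the replicate block and with total counts. With each library left out they numbered 46 to 48, of 48 tested members or of 49 where Ccnd1 entered the fit. The lowest were 46 of 48 without DTA-1 replicate 1, beside 52.7% of all tested genes, and 46 of 49 without isotype control replicate 2. Fitted log2 values close to 0 turned in sign, with ranges over the left-out libraries of -0.033 to 0.016 for Ccnd2, -0.039 to 0.020 for Cdk4 and -0.014 to 0.059 for Cdc20. With total counts Mcm6 was at -0.0028 and Cdc20 at -0.014. Without DTA-1 replicate 1 Ccnd2 was at 0.0021 and Cdc20 at -0.014, without DTA-1 replicate 3 Cdk4 was at 0.020, and without isotype control replicate 1 or 3 Ccnd2 was at 0.016 or 0.0082. The cause was not tested. Over all genes DESeq2's Wald test called 25, the fit without a low count filter 2, and the fit with the replicate block 1. The replicate block gave 0 called members and a median of 0.0025. Same-numbered libraries had correlations of -0.0069, -0.0028 and 0.015 between their deviations from the group means. Libraries of different numbers had -0.014 to 0.016. Whether same-numbered libraries shared mice or a day was not tested. Depth limits Ccnd1, which had at most 16.4 counts.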

Other observations

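Mycl, a gene of the Myc family that is not among the 49, was singled out after its values were seen. The isotype control libraries held 9, 0 and 1 of its reads by count, beside 1, 70 and 53 for DTA-1, in replicate order. Because Mycl was picked from these values, they are no separate evidence on where DTA-1 replicate 1 lies. The filter on low counts removed Mycl from the test with all 6 libraries. It passes that filter only through the libraries in which it is high, so no test is given.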
